A study of Mus musculus with 6 samples.

Results

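Receptors for neurotransmitters, neuropeptides and prostaglandins let a cell respond to nerves and to local mediators. The expression of 31 such receptor genes was examined in sorted mouse haematopoietic stem cells (HSCs), the rare marrow cells from which all blood lineages arise. The genes were taken from a list of receptor names and found by gene name among the 35275 genes of the deposited expression table: 30 matched directly, and Drd1 was found through its gene identifier under the older name Drd1a. Each of the 6 libraries came from about 2000 HSCs sorted from the bone marrow of adult mice. There were 3 libraries from Ramp1 mutant mice, whose genotype the labels write as Ramp-/-, and 3 from Ramp1+/+ mice, called wild type here; age is given only as adult, and no agent is named for either group. Ramp1 encodes the accessory subunit of the receptor for CGRP, a peptide of pain-sensing nerves. The labels give neither the part of the gene removed, nor the cells in which it is removed, nor whether each library was a separate animal, so each p-value reflects library-to-library spread, which may be technical.

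Most of these receptors have 7 transmembrane segments and act through a G protein. Gs raises cyclic AMP, Gi lowers it, and Gq releases calcium inside the cell. Nicotinic acetylcholine receptors are instead ion channels built from several subunits. Sympathetic and sensory nerves run through the marrow, and prostaglandin E2 is known for its effects on HSC number and homing. Of the 31 genes, 13 are chiefly Gs-coupled, 8 Gi-coupled and 8 Gq-coupled, and 2 encode channel subunits.

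The libraries held between 22796771 and 26734561 reads counted in genes. Ramp1 had 3.53, 2.65 and 1.35 FPKM in the mutant libraries, against 91.4, 88.3 and 91.0 FPKM in the wild-type libraries. FPKM scales the reads of a gene to its length and to the size of the library. All 15 HSC marker genes examined exceeded 0.5 FPKM and together summed to 1740 to 2210 FPKM in mutant and 1750 to 2040 FPKM in wild-type libraries. Markers of neutrophils summed to 257 to 1230 FPKM in mutant libraries and 110 to 889 FPKM in wild-type libraries. All 16 averaged above 0.5 FPKM over the 6 libraries, but Ly6g and Fcnb, for example, were at 0 in replicate 1 of both groups. Of the other marker lists, megakaryocyte genes summed to 153 to 226 FPKM in mutant and 170 to 220 FPKM in wild-type libraries, and erythroid genes to 45.5 to 156 FPKM in mutant and 14.4 to 88.6 FPKM in wild-type libraries. T and NK cell genes summed to 40.7 to 63.4 FPKM in mutant and 53.6 to 81.2 FPKM in wild-type libraries. Most of this was Nkg7, with a mean of 46.2 FPKM over all libraries. Only 4 of these 11 genes averaged at least 0.5 FPKM, and Cd3e averaged 0.0545 FPKM. Endothelial and stromal genes summed to 44.9 to 57.4 FPKM in mutant and 49.2 to 55.9 FPKM in wild-type libraries, and macrophage and monocyte genes to 12.8 to 48.6 FPKM in mutant and 36.3 to 40.9 FPKM in wild-type libraries. Mast cell, basophil and eosinophil genes summed to 10.6 to 15.8 FPKM in mutant and 11.5 to 20.9 FPKM in wild-type libraries. Most of this was Gata1, with a mean of 12.4 FPKM, and 2 of these 9 genes averaged at least 0.5 FPKM. Replicate 1 of each group held many Y-linked reads, 6137 in the mutant and 6527 in the wild-type library, and the other libraries held at most 2; the labels give no sex. Of 11 nerve and glia markers, 2 averaged at least 0.5 FPKM and 5 were at 0 in every library. The sodium channel genes Scn9a and Scn10a were among these 5. In bulk RNA, fewer cells of a type and less RNA per cell cannot be told apart.

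The receptors differed widely in level. Of the 31 genes, 11 had a mean over the 6 libraries of at least 0.5 FPKM, 13 lay below that but above 0, and 7 were at 0 in every library. The 11 genes made up 96.9% to 99.1% of the summed FPKM of all 31 in each library, which largely follows from choosing them by level. In order of mean level they were Ptger3, Vipr2, Ptger4, Chrnb1, P2ry14, Adora2a, Ptger1, Cnr2, Hrh2, Adora2b and Sstr2. The 0.5 limit fell in a gap: Sstr2, the lowest of the 11, averaged 1.49 FPKM, and Tacr1, the next gene down, 0.405 FPKM. For comparison, 13273 of the 35275 genes in the table had a mean of at least 0.5 FPKM. Ptger3, at 25.2 FPKM, was higher than 81.8% of the 20422 genes with any signal, and Sstr2 higher than 44.5%.

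**Figure D1:**
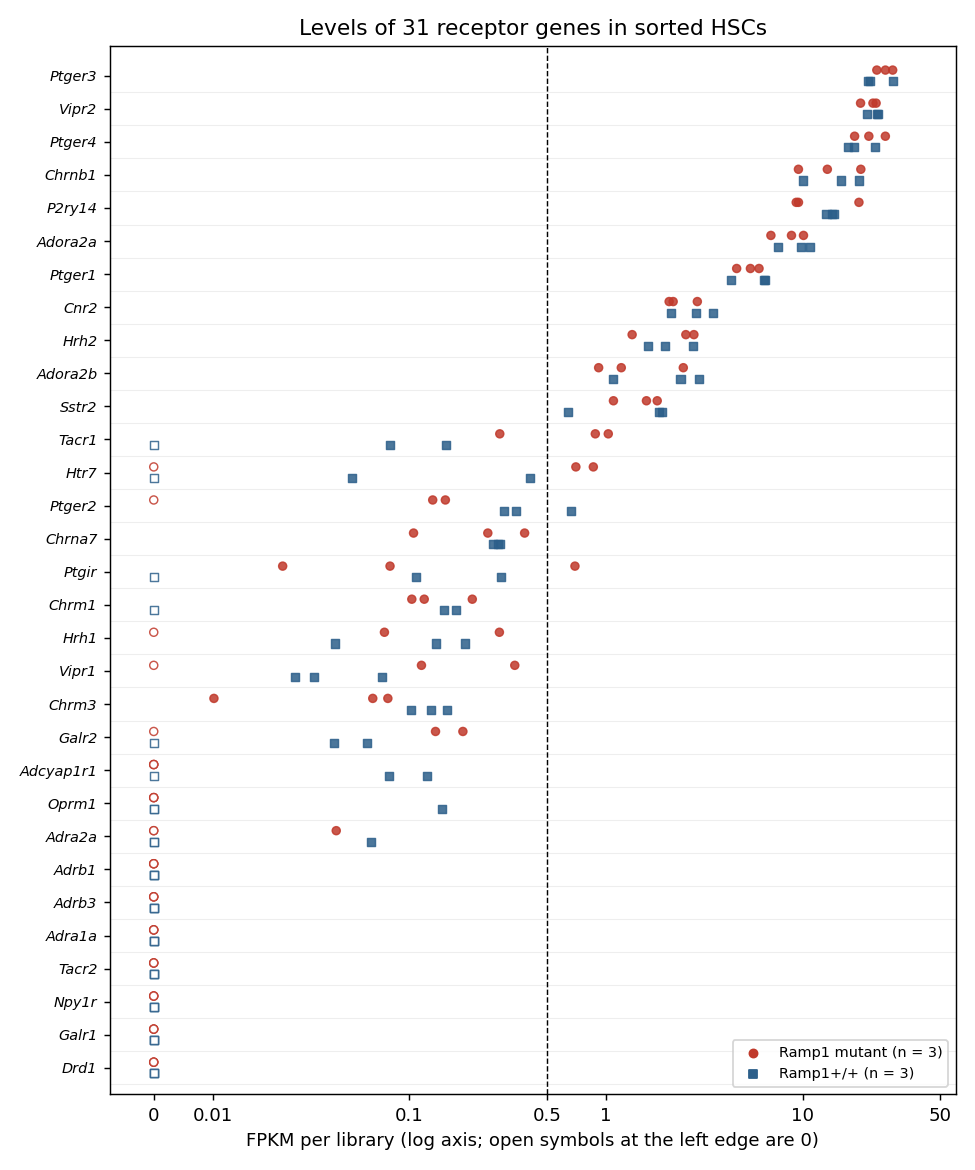
FPKM (log axis) of the 31 receptor genes in each library, ordered by mean level from top to bottom; red circles are the 3 mutant and blue squares the 3 wild-type libraries, open symbols at the left edge are values of 0 and the dashed line marks 0.5 FPKM. The upper 11 genes lie right of the line in every library, and the lowest 7 are at 0 in every library.

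Promoters are described because base composition around the start is a feature that the choice of the 31 genes did not use. The 4 shown were picked by level and by sequence, so their contrast was chosen. They are the highest gene, an expressed gene poor in CpG dinucleotides, a gene at 0 rich in them, and the gene with a motif named below. The windows hold 250 bases before and 50 after the start, as given by RefSeq on GRCm38.p6, the same assembly as mm10. A window was found for 25 of the 31 genes; Ptger1, Adora2a, Chrm1, Adra1a, Galr1 and Adrb3 had none in the table. Ptger3, the highest receptor, lies on the plus strand with its window at chr3:157566626-157566925. The P2ry14 window nearest to the gene start in the authors' table is on the minus strand at chr3:59130713-59131012. Adrb1, a gene at 0 in every library, has its window on the plus strand at chr19:56721867-56722166. In these 3 windows capitals mark CpG dinucleotides.
Ptger3: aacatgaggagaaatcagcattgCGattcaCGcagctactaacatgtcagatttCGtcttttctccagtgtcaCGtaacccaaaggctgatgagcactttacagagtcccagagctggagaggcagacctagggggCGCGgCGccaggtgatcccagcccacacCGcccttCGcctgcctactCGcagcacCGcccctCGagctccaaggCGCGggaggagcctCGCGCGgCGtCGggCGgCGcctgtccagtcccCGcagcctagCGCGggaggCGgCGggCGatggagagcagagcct
P2ry14: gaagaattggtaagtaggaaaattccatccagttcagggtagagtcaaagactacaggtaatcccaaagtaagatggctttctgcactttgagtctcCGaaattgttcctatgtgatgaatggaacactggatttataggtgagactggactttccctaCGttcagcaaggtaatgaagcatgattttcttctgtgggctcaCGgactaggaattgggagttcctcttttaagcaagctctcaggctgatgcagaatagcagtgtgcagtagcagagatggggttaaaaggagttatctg
Adrb1: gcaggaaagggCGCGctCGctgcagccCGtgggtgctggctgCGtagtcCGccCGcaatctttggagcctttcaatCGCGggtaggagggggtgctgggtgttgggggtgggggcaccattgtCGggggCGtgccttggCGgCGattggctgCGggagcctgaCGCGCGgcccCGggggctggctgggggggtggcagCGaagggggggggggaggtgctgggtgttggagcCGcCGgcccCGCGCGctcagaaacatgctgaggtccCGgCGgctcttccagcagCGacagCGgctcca
In the Sstr2 window, on the plus strand at chr11:113619077-113619376, capitals mark the only match to the cyclic AMP response element TGACGTCA.
Sstr2: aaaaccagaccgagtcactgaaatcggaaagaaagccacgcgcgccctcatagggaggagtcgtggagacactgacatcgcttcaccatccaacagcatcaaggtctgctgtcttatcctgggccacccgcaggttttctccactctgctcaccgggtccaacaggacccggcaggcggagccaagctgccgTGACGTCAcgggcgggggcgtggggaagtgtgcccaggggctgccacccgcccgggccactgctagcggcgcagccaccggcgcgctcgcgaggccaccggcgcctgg

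CpG counts ranged widely among both the higher and the lower receptors. The window of Ptger3 held 27 CpG dinucleotides and the one shown for P2ry14 held 3, although both genes were well above the 0.5 limit, while Adrb1 held 28 and had no reads. Taking the richest window of each gene, the 9 receptors of at least 0.5 FPKM with a window held 3 to 27 CpG dinucleotides with a median of 18, and the 16 lower ones 3 to 46 with a median of 14. Over all 27025 genes with a window the median was 8. The element TGACGTCA, which reads the same on both strands, was found in the window of 1 of the 25 genes, Sstr2, from 58 to 51 bases before the start. It occurs in 1.79% of all 32851 windows and in 2.03% of all genes with a window. Its core TGACG, searched on both strands and contained in the full element, was found in 7 of the 25 genes: Sstr2, Chrnb1, Tacr1, Vipr1, Htr7, Adra2a and Adrb1. The core occurs in 20.8% of all windows and in 23.0% of all genes with a window.

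**Figure D2:**
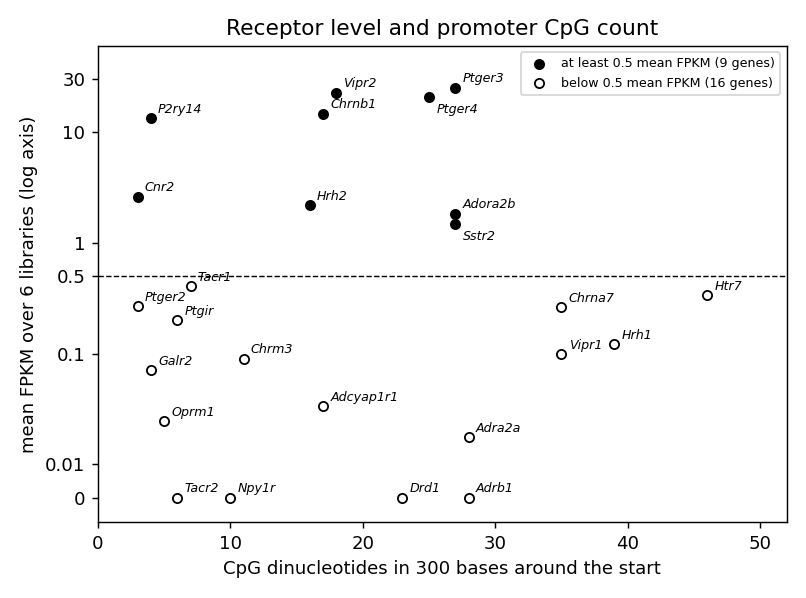
Mean FPKM over 6 libraries (log axis, 0 drawn at the lower edge) against the CpG count of the richest 300-base promoter window, for the 25 receptor genes with a window; filled points are the 9 genes of at least 0.5 FPKM and open points the 16 below. Both sets span the range from 3 CpG dinucleotides to more than 20, and Adrb1 at 28 and Drd1 at 23 are at 0 FPKM.

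The mutant libraries were then compared with wild type, which asks whether loss of one neuropeptide receptor subunit goes with other receptor levels. None of the 11 receptors of at least 0.5 FPKM passed the test (edgeR quasi-likelihood test on read counts, adjusted p = 0.999 for each, adjusted over 14443 genes). Across all genes tested 0.0208% were called, 3 genes in all, by an adjusted p under 0.05. Thus 0 of the 11 rose, against 0.00692% of all genes, and 0 fell, against 0.0138%. DESeq2 called 0 of the 11 and 0.284% of 15505 genes. Of the 11, 0 had an unadjusted p under 0.05, against 3.99% of all genes, and the smallest was 0.316, for Ptger4. In all 11 the mutant and wild-type libraries overlapped, whereas the groups did not overlap in 10.3% of all genes tested. Values were higher in mutant cells for 4 receptors and lower for 7; 49.9% of all genes had a lower value. The median log2 fold change was -0.08, against 0.000296 over all genes. In simulated counts for 14443 genes, 200 of them changed, the same test recovered 24% of genes changed 1.5-fold and 56% changed 2-fold. Changes of that size could thus be missed. Many changed genes make an adjusted threshold easier to reach, and only 3 genes were called in the data. The recovery for these 11 receptors may therefore be lower than in the simulation.

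**Figure D3:**
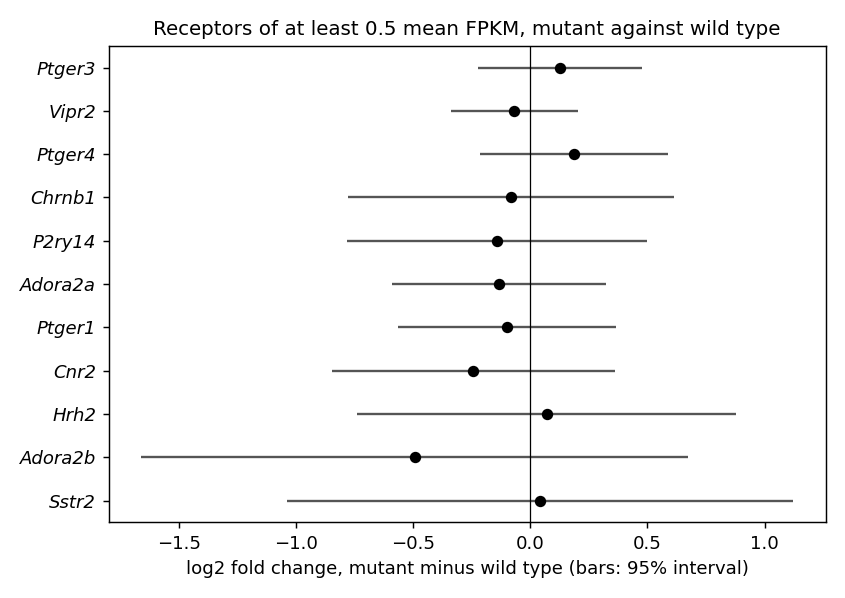
Log2 fold change, mutant minus wild type, of the 11 receptor genes of at least 0.5 mean FPKM (points) with 95% intervals from the edgeR fit (bars), ordered by level. Every interval includes 0; the narrowest belongs to Vipr2, from -0.34 to 0.21, and the widest to Adora2b, from -1.66 to 0.68.

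Prostaglandin receptors were the most highly expressed class. Ptger3 encodes EP3, a Gi-coupled receptor for prostaglandin E2; the authors' table places the gene on the plus strand of mm10 at chr3:157566892-157644758. It had 28.7, 23.9 and 26.4 FPKM in mutant libraries, against 22.1, 28.8 and 21.4 FPKM in wild-type libraries. The highest value of all was a wild-type one, and the groups overlapped (log2 fold change 0.13, SE 0.15). Ptger4 (minus strand, chr15:5206661-5244187) encodes EP4, a Gs-coupled receptor for the same ligand. Its levels were 21.7, 26.4 and 18.4 FPKM in mutant cells and 17.0, 18.2 and 23.4 FPKM in wild-type cells. The log2 fold change was 0.19 (SE 0.17), with a 95% interval of -0.22 to 0.59. The sorted HSC libraries held transcripts of both a cyclic AMP-lowering and a cyclic AMP-raising receptor for prostaglandin E2. Bulk RNA cannot tell which cells held them, or whether the same cells held both. Together the 2 genes made up 84.4% to 90.6% of the summed FPKM of the 5 prostanoid receptors in each library.

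Ptger1, for the Gq-coupled EP1, had 5.43, 6.01 and 4.62 FPKM in mutant libraries, against 6.46, 6.40 and 4.34 FPKM in wild-type libraries (log2 fold change -0.10, SE 0.20). Its level is uncertain, because no source used here states whether counting used strand, and reads from the opposite strand cannot be told apart. Ptger4 shares 16.5% of its exon bases with genes on the opposite strand, chiefly a pseudogene at 0 FPKM. Ptger2, which encodes EP2, the other Gs-coupled receptor for prostaglandin E2, was far lower. It had 0, 15 and 12 reads in mutant libraries, against 62, 32 and 26 reads in wild-type libraries, or 0.0945 ± 0.0825 and 0.438 ± 0.197 FPKM (SD, n = 3 each). All mutant values lay below all wild-type values. With a mean of 0.266 FPKM it fell under the limit of 0.5 FPKM, and it did not pass in the fit of all genes (edgeR adjusted p = 0.999). Ptgir, for the prostacyclin receptor, had 6, 2 and 57 reads in mutant cells, against 9, 24 and 0 reads in wild-type cells, so that 1 mutant library held most of its reads.

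Among neuropeptide receptors, Vipr2 (plus strand, chr12:116077726-116146261) was the highest. It encodes VPAC2, a Gs-coupled receptor for vasoactive intestinal peptide and PACAP. Levels were 22.8, 23.7 and 19.7 FPKM in mutant cells and 24.2, 23.9 and 21.3 FPKM in wild-type cells. The groups overlapped, and the SE was the smallest of the 11 (log2 fold change -0.07, SE 0.12, 95% interval -0.34 to 0.21). Vipr1, encoding the related VPAC1, had 0, 45 and 14 reads in mutant cells and 9, 4 and 3 reads in wild-type cells. Vipr2 accounted for at least 98.6% of the summed FPKM of the pair. Adcyap1r1, for the PACAP receptor PAC1, was at 0 in all mutant libraries and had 0.123, 0.0790 and 0 FPKM in wild-type libraries. It is one of 10 members outside the count table, which lists exactly the genes with a read in mutant replicate 1 or 2. A value of 0 in those 2 libraries is therefore a condition of being outside it.

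Sstr2, for a Gi-coupled somatostatin receptor, was low but detected in every library. It had 89, 92 and 58 reads in mutant libraries, against 101, 34 and 96 reads in wild-type libraries. The lowest value was that of wild-type replicate 2, at 0.638 FPKM (log2 fold change 0.04, SE 0.47). Tacr1 (plus strand, chr6:82402475-82560103) encodes NK1, the receptor for substance P, a peptide that sensory nerves release along with CGRP. It had 33, 138 and 110 reads in mutant libraries, against 0, 10 and 18 reads in wild-type libraries, which is 0.288, 1.03 and 0.882 FPKM against 0, 0.0800 and 0.153 FPKM. Every mutant value exceeded every wild-type value, but Tacr1 did not pass (edgeR adjusted p = 0.999, DESeq2 adjusted p = 0.129). Replicate 1 was the lowest of its group in both. The summed neutrophil markers were also lowest in replicate 1 of both groups. They were 257, 924 and 1235 FPKM in mutant and 110, 414 and 889 FPKM in wild-type libraries. Between the groups the order differed. Wild-type replicate 3, at 889 FPKM of these markers, had 0.153 FPKM of Tacr1, and mutant replicate 1, at 257 FPKM, had 0.288 FPKM. The part of these markers in the Tacr1 values was not tested.

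The other neuropeptide receptors were near or at 0. Galr2, a galanin receptor, had at most 9 reads in any library. Oprm1, the mu opioid receptor, was detected in 1 library, wild-type replicate 1, at 0.147 FPKM. Tacr2 (neurokinin A), Npy1r (neuropeptide Y) and Galr1 (galanin) were at 0 in all 6 libraries. For the 7 genes at 0, a level of 3 reads in a library would have corresponded to between 0.0129 and 0.0583 FPKM with GENCODE exon lengths, counting error only; lower levels were not detectable at this depth.

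**Figure D4:**
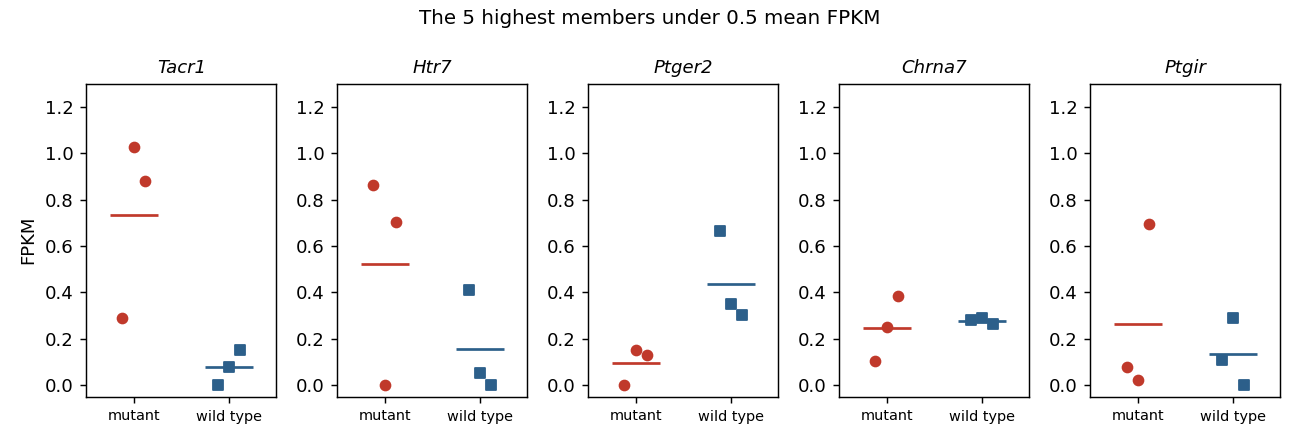
FPKM of the 5 highest receptor genes under 0.5 mean FPKM, with 1 point per library, mutant left and wild type right, and group means as lines. Tacr1 is higher in all 3 mutant libraries, Ptger2 is lower in all 3, and the groups overlap for Htr7, Chrna7 and Ptgir. Neither Tacr1 nor Ptger2 passed the edgeR test (adjusted p = 0.999 for each).

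All 3 purine receptors were expressed. P2ry14, a Gi-coupled receptor for UDP-glucose known from HSCs and progenitors, had 19.4, 9.53 and 9.28 FPKM in mutant libraries, against 14.5, 14.2 and 13.2 FPKM in wild-type libraries. Mutant replicate 1 lay above and the other mutant libraries below all wild-type values, so that the mutant SD was 5.75 FPKM and the wild-type SD 0.657 FPKM (n = 3 each). The log2 fold change was -0.14 (SE 0.28). Adora2a, the gene of a Gs-coupled adenosine receptor, had 10.1, 8.78 and 6.90 FPKM in mutant cells and 9.85, 7.52 and 10.96 FPKM in wild-type cells (log2 fold change -0.13, SE 0.20). Adora2b, for a related receptor of lower affinity, had 2.47, 1.20 and 0.917 FPKM in mutant cells and 2.39, 1.09 and 2.97 FPKM in wild-type cells. Its log2 fold change, -0.49 (SE 0.50), had a 95% interval of 0.316-fold to 1.60-fold. It was -0.99 without mutant replicate 1 and -0.20 without wild-type replicate 3. Adora2a made up 78.7% to 88.3% of the summed FPKM of the adenosine receptor pair.

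Of the cholinergic genes, Chrnb1 was prominent. It encodes the beta 1 subunit of the nicotinic receptor, known from the muscle endplate. Its levels were 19.8, 9.53 and 13.4 FPKM in mutant cells and 15.7, 10.01 and 19.4 FPKM in wild-type cells. Replicate 2 was the lowest of each group, and the log2 fold change was -0.08 (SE 0.30). Among other genes of nicotinic subunits in a list of related receptors, Chrna1 and Chrnd, whose products join beta 1 in the muscle receptor, were at 0 in every library. Of the other muscle subunit genes, Chrne reached 0.0748 FPKM in mutant replicate 3 and was at 0 elsewhere, and Chrng was above 0 in 3 libraries, at 0.0289 FPKM or less. Chrna7, the alpha 7 subunit that can form a channel by itself, had 5, 14 and 20 reads in mutant libraries, against 15, 15 and 13 reads in wild-type libraries. The Gq-coupled muscarinic receptor genes were lower still. Chrm1 had at most 35 reads in any library. Chrm3 had 1, 9 and 7 reads in mutant cells and 17, 11 and 13 reads in wild-type cells, groups that did not overlap. Among the 20 genes below 0.5 FPKM the groups were separate for 3, Tacr1 higher and Ptger2 and Chrm3 lower in mutant cells; 7 of the 20 are at 0 throughout and could not separate. All 3 were among the 7 of these 20 genes that passed the count filter, and none passed the test (edgeR adjusted p = 0.999 for each). The groups were separate for 0 of the 11 higher receptors, and so for 3 of the 18 members that passed the filter. Over all genes tested the groups did not overlap in 10.3%. The set is small, and the shares were not compared by a test.

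Cnr2, the Gi-coupled cannabinoid receptor CB2 of immune cells, had 2.92, 2.20 and 2.10 FPKM in mutant libraries, against 2.13, 3.50 and 2.87 FPKM in wild-type libraries (log2 fold change -0.24, SE 0.26). Because CB2 is abundant in B cells, their markers were read beside it: Pax5 was at 0 in every library, while Cd79b averaged 39.1 ± 7.65 FPKM in mutant and 38.2 ± 3.41 FPKM in wild-type cells (SD, n = 3 each). The 11 B and plasma cell markers together summed to 39.7 to 50.7 FPKM in mutant and 41.9 to 43.9 FPKM in wild-type libraries. Of these markers 5 averaged at least 0.5 FPKM. The part of the B and plasma cell markers in the Cnr2 level was not tested.

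Hrh2, the Gs-coupled histamine H2 receptor gene, had 2.80, 2.55 and 1.36 FPKM in mutant cells and 2.77, 1.63 and 1.995 FPKM in wild-type cells. The values overlapped throughout (log2 fold change 0.07, SE 0.35). The H1 receptor gene Hrh1 had 0, 29 and 7 reads in mutant libraries, against 4, 18 and 12 reads in wild-type libraries. Htr7, for a Gs-coupled serotonin receptor, was detected unevenly, with 62, 0 and 55 reads in mutant libraries and 33, 4 and 0 reads in wild-type libraries. Drd1, the dopamine D1 receptor gene, was at 0 in all 6 libraries.

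The adrenergic receptors examined, which bind noradrenaline from sympathetic nerves, were at or near 0. Adrb1, Adrb3 and Adra1a were at 0 in every library. Adra2a reached 0.0424 FPKM in mutant replicate 3 and 0.0634 FPKM in wild-type replicate 2 and was at 0 elsewhere. In the list of related receptors Adra1b, Adra1d, Adra2b and Adra2c were also at 0 in every library. These genes are not the whole adrenergic family.

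The 13 Gs-coupled receptors together outweighed the 8 Gi-coupled ones in every library. Their summed level was 60.9, 63.1 and 49.0 FPKM in mutant libraries and 57.6, 53.2 and 60.9 FPKM in wild-type libraries. The Gi-coupled sum was 52.8, 37.2 and 38.9 FPKM in mutant cells and 40.7, 47.1 and 39.4 FPKM in wild-type cells. Gq-coupled genes summed to 4.90 to 7.61 FPKM over all libraries, most of it Ptger1. The sums of the groups overlapped in each class. The sizes of these sums depend on the authors' gene lengths. With exon lengths of GENCODE M21, an alternative chosen after seeing the data, the 5 Gs-coupled genes of at least 0.5 FPKM summed to 39.3 FPKM on average over the 6 libraries, against 56.5 FPKM with the deposited lengths. The 4 Gi-coupled genes of that level summed to 15.5 FPKM with GENCODE lengths, against 42.7 FPKM with the deposited ones.

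**Figure D5:**
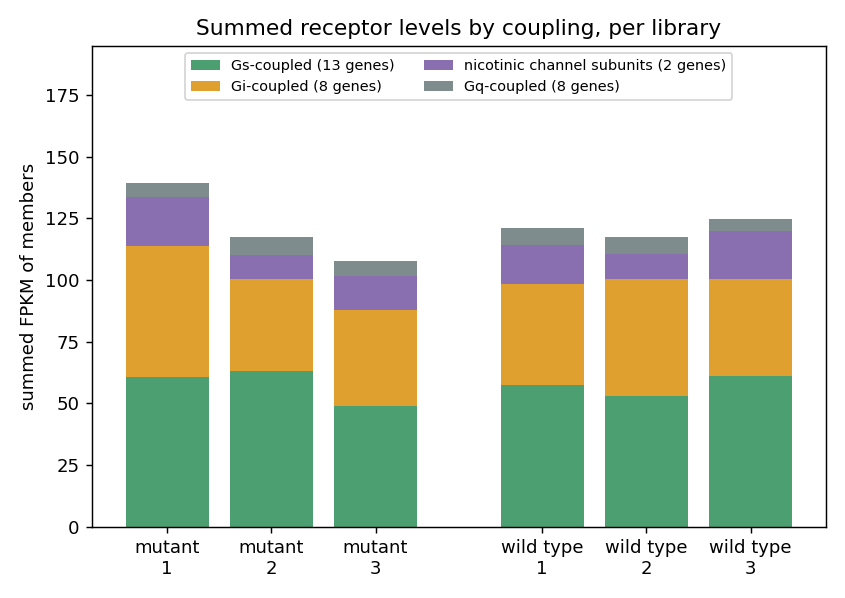
Summed FPKM of the 31 receptor genes per library, stacked by the G protein or channel class of their products; mutant libraries are on the left and wild-type libraries on the right. The Gs-coupled sum lies between 48.9 and 63.1 FPKM and the Gi-coupled sum between 37.2 and 52.8 FPKM.

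Neighbours in the order of levels were often not separable. Ptger3 exceeded Vipr2 in 5 of 6 libraries and Vipr2 exceeded Ptger4 in 4 of 6, whereas Ptger4 exceeded Chrnb1 in 6 of 6. Chrnb1 exceeded P2ry14 in 4 of 6 libraries, and P2ry14, Adora2a, Ptger1 and Cnr2 followed each other in this order in all 6. Among the lowest, Cnr2 exceeded Hrh2 in 4 of 6, Hrh2 exceeded Adora2b in 5 of 6 and Adora2b exceeded Sstr2 in 4 of 6. The order also depends on gene length. The authors' table gives Ptger3 a length of 2097 bases and P2ry14 one of 1797 bases, where the exons of GENCODE M21 cover 5688 and 11059 bases. With those lengths, an alternative chosen after seeing the data, Vipr2 was first at 17.1 FPKM, Chrnb1 had 12.5, Ptger4 11.8 and Ptger3 9.30 FPKM, and P2ry14 came 8th at 2.17 FPKM. All 11 genes stayed above 0.5 FPKM, and fold changes between the groups do not depend on length.

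Most related receptors outside the set were also low or at 0. Of 66 further subtypes of these receptor families, 6 averaged at least 0.5 FPKM and 38 were at 0 in every library; 10 could be tested and 0 passed. The highest was Tbxa2r, the thromboxane receptor of platelets, at 11.4 ± 3.81 FPKM in mutant and 16.2 ± 0.878 FPKM in wild-type cells (SD, n = 3 each; log2 fold change -0.52, SE 0.23). The nucleotide receptor genes P2ry2, P2ry1, P2ry10 and P2ry13 averaged 8.16, 3.03, 2.33 and 1.18 FPKM over the 6 libraries, and the serotonin receptor gene Htr2a 3.17 FPKM. Of the 7 receptor kinases and arrestins, which shut off activated receptors, 5 averaged at least 0.5 FPKM and 0 of 7 passed. Grk2 averaged 66.3 ± 18.7 FPKM in mutant and 85.6 ± 4.94 FPKM in wild-type cells (log2 fold change -0.37, SE 0.18). Grk6 averaged 52.1, Arrb2 18.0, Arrb1 10.5, Grk3 7.32 and Grk4 0.491 FPKM over all libraries.

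Of 13 G protein alpha subunit genes, 11 were tested and 0 passed. Gnai2 and Gnai3, which serve Gi-coupled receptors, averaged 325 and 134 FPKM over the 6 libraries. Gna15, Gna13 and Gna11 averaged 49.7, 21.4 and 7.77 FPKM. Gna12 had 22.1, 7.27 and 6.67 FPKM in mutant libraries, against 38.0, 34.8 and 23.5 FPKM in wild-type libraries; all mutant values were lower, but the gene did not pass (log2 fold change -1.43, SE 0.45). Among 37 genes of ligand synthesis and clearance 28 were tested and 0 passed. Ptges3, a co-chaperone also described as a prostaglandin E synthase, averaged 175 FPKM. Ptgs1, the constitutive cyclooxygenase, averaged 72.0 FPKM and the inducible Ptgs2 0.0956 FPKM. Adk, which phosphorylates adenosine, averaged 56.5 FPKM and Ugp2, which makes UDP-glucose, 29.6 FPKM. Hnmt, which inactivates histamine, averaged 26.2 FPKM. Th and Dbh of noradrenaline synthesis and Chat of acetylcholine synthesis were at 0 in every library. Of 10 neuropeptide precursor genes 0 averaged at least 0.5 FPKM, and the highest was Pomc with a mean of 0.422 FPKM. Vip, Gal, Sst, Adcyap1 and Pdyn were at 0 in every library.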

How the data were processed

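RNA sequencing covered 6 libraries of sorted HSCs, 3 mutant and 3 wild type by their labels. The authors deposited raw read counts for 18368 genes, with FPKM, values divided by size factors (a normalized signal that no step here reads), log2 fold changes, p-values and coordinates, and an FPKM table of 35275 genes; these units are named per the file headers. Build mm10 and the tools DESeq2, STAR, CASAVA and HTSeq 0.6.1 are listed, without roles, per the submitters' processing notes. The annotation release and the strand setting are not given in the sources used here.

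The counts of all genes went into edgeR 4.0.16 (R 4.3.3) with TMM scaling, filterByExpr and the two-sided quasi-likelihood F test, with Benjamini-Hochberg adjustment over 14443 genes and a threshold of 0.05. Standard errors were derived from each log2 fold change and its F value. Of the 31 members, 21 were in the count table and 18 passed the filter. Of these 18, 7 lay under 0.5 mean FPKM and are given by level, with an adjusted p only for Tacr1, Ptger2 and Chrm3. Members, lists and tests were chosen with earlier results of these data known. Members of at least 0.5 FPKM are given in full, and of each other list up to 6 genes with the highest mean, of which 1 is not reported here; Cd79b, Pax5, Chrna1, Chrnd, Ptgs2 and further genes at 0 were named after their values were seen. Of 249 list symbols 1 was not matched. Exon overlaps came from GENCODE M21 and promoters from RefSeq, both GRCm38. edgeR was tested on simulated data with 200 changed genes. Alternatives were another scaling, no filter, DESeq2 1.42.0, limma 3.58.1 on log2(FPKM + 0.1) and log2(FPKM + 1), each library left out, a replicate block, Y-linked reads as a covariate or a reason to leave out libraries, and other level limits. All pairs of libraries differed by more than sampling noise. The counts give precision by read number only.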

Additional observations from a re-analysis of the deposited data

How the results depend on the processing

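The count of 11 receptors of at least 0.5 mean FPKM stayed at 11 with a limit of 1 FPKM, with the median, with 0.5 FPKM in every library, and with GENCODE lengths, and was 15 with a limit of 0.25 FPKM and 12 without both libraries with Y-linked reads. None of the 11 passed under any of 14 alternatives each (smallest adjusted p = 0.733). Of 154 fold changes under an alternative, 143 kept their direction. The 11 that turned all left out 1 library: without each library in turn the log2 fold change ran from -0.37 to 0.14 for Chrnb1, -0.55 to 0.0285 for P2ry14, -0.27 to 0.00763 for Ptger1, -0.10 to 0.32 for Hrh2 and -0.31 to 0.27 for Sstr2. Over all genes 3 were called, 44 by DESeq2, and 2 to 6 without 1 library in turn, with 6 without mutant replicate 2; the cause was not tested. The labels do not say that a replicate number marks a shared batch or litter. Both replicate 1 libraries held Y-linked reads. Over all genes tested, the deviations of same-numbered libraries correlated at 0.138, 0.00181 and -0.094, and mutant replicates 2 and 3 correlated best with other numbers. Some markers did follow the numbers. Summed neutrophil markers rose from replicate 1 to 3 in both groups, and Elane was highest in replicate 2 of both, at 30.5 FPKM in mutant and 26.5 FPKM in wild type. Prtn3 of the same list was highest in mutant replicate 1 and wild-type replicate 2. The labels name no pairing, so the numbers were not taken as pairs. Whether same-numbered libraries belong together cannot be told from these values. With the replicate block 0 of the 11 and 2 of all genes were called.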

Other observations

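Gnas, which encodes the Gs alpha subunit that the 13 Gs-coupled receptors use, averaged 0.459 ± 0.143 FPKM in mutant and 0.451 ± 0.0519 FPKM in wild-type cells (SD, n = 3 each). Gnai2 averaged 325 FPKM over the 6 libraries. Gnas was chosen after its values were seen, which rest on 35 to 56 reads per library. The annotation release and the handling of reads shared between genes are not given in the sources used here, and no low level of the gene is read from this count.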
